A study of Mus musculus with 6 samples.

Results

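Messenger RNAs of the vascular endothelial growth factor (VEGF) and angiopoietin families were examined in mouse C3H10T1/2 cells, with all probe sets whose single platform symbol was Vegfa, Vegfb, Vegfc, Pgf, Angpt1, Angpt2, Angptl2, Angptl4, Tek or Kdr. Of these 10 genes, 9 had a named probe set, giving 15 probe sets, and Angptl2 had no named probe set here. After the filter on low signal 11 probe sets of 8 genes were tested, out of 27022 tested on the array. C3H10T1/2 is a mesenchymal line able to form fat, cartilage, bone and muscle cells in culture, and the series asked which genes BMP4 regulates as these cells commit to the adipocyte lineage. In the treated group, cells of this line were given 50 ng/ml BMP4, a secreted bone morphogenetic protein, while proliferating and were harvested past confluence. The control group comprised the same line grown past confluence without BMP4. Each group held 3 samples on 1 array each, and no genotype, age or further agent is given in the labels. The labels do not name separate cultures, so the p-values rest on a spread that could be technical.

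VEGF ligands bind tyrosine kinase receptors on endothelial cells, of which Kdr is the main signalling receptor for Vegfa and a receptor for Vegfc, the ligand best known for lymphatic vessel growth. Angiopoietins bind the receptor tyrosine kinase Tek, also called Tie2: Angpt1 activates it and stabilises vessels, while Angpt2 often opposes this. Angptl4 does not bind Tek and is a secreted inhibitor of lipoprotein lipase, induced by fasting, hypoxia and PPAR nuclear receptors. Mesenchymal cells and adipocytes are known sources of several of these ligands, whereas Kdr and Tek are mostly endothelial.

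Start regions for 7 of the 10 genes were held by the RefSeq promoter table (GRCm38.p6). The 250 bases before the start are printed for Vegfc and Tek, the genes with a lower call below that had an entry, and for Vegfa, whose probe sets did not pass the test. They are given 5′ to 3′ on the gene's own strand, and capitals mark matches to any of the motifs searched. These lie at chr8:54077282-54077531 (plus strand) for Vegfc, chr4:94739039-94739288 (plus strand) for Tek and chr17:46032378-46032627 (minus strand) for Vegfa.
Vegfc: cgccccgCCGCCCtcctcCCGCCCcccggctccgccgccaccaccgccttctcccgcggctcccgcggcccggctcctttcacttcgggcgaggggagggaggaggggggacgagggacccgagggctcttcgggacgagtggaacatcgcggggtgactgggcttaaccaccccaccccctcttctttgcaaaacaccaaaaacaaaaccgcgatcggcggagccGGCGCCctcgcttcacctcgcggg
Tek: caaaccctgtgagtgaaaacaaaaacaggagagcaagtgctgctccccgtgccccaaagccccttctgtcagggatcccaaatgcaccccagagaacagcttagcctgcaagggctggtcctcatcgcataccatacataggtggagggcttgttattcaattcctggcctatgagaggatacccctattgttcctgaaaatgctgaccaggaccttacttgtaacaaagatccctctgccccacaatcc
Vegfa: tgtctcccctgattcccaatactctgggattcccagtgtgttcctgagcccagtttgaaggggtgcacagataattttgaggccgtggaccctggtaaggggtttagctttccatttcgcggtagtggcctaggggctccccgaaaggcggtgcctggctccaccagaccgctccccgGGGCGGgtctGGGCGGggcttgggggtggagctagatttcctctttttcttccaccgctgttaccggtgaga
Matches were sought on both strands. The hypoxia response element was searched by its core in the forms ACGTG, called here the A form, and GCGTG, the G form. The GC box was searched as GGGCGG. The GC-rich element that BMP Smads bind was searched as GGCGCC. The AP-1 site was searched as TGANTCA and the TATA box as TATAAA. The Vegfc window held 2 GC boxes and 1 Smad element, the printed Vegfa window held 2 GC boxes, and the Tek window held 0 matches. The table holds a second Vegfa start, whose window at chr17:46025164-46025413 (minus strand) had 1 match to each form of the hypoxia core and 1 GC box. On the minus strand this window lies downstream of the printed Vegfa window, so its hypoxia core matches are not in the region before the printed start. Whether they act in a promoter was not tested. No motif overlapped another in the printed windows. Among 32851 windows of the same length, 32.7% held a GC box, 9.59% the Smad element, 16.6% the A form and 28.2% the G form of the hypoxia core, 6.75% the AP-1 motif and 12.4% a TATA box. Guanine and cytosine made up 71.6% of the Vegfc window, 51.2% of the Tek window and 59.2% of the printed Vegfa window, against a median of 52.4%.

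Signals are linear array intensities scaled by the authors, with a 2% trimmed mean of 150.0 on each array. Median signals ran from 37.6 to 42.6 for BMP4 and from 35.2 to 37.3 for control. Without detection calls in the table, bacterial control probe sets, for which mouse cells have no transcript, served as the background. Their highest signal per array was 23.5 to 29.1 for BMP4 and 16.6 to 21.0 for control. All 8 mesenchymal fibroblast markers were above 29.1 on every array, for example Col1a1, a chain of type I collagen, with 7564 ± 627 with BMP4 and 6944 ± 1126 without it (SD, n = 3). Of these 8, 0 rose and 2 fell with BMP4: Pdgfra, a growth factor receptor of mesenchymal cells, by 0.90 on the log2 scale (limma adjusted p = 6.34e-05) and Lum, the matrix proteoglycan lumican, by 0.89 (5.84e-05). Col3a1, not called on its brightest probe set, was lower on another (-0.45, limma adjusted p = 0.0352). Beside the marker counts in this paragraph, 5.03% of all 12966 genes tested rose and 5.66% fell (1 probe set per gene). Of 7 pericyte markers with a named probe set, 3 lay under 29.1 on all 6 arrays. Of the 4 tested, 0 rose and 1 fell, Notch3, a Notch receptor (244 ± 2.89 with BMP4 and 582 ± 13.8 without it, SD, n = 3, limma adjusted p = 1.72e-06). Another Notch3 probe set gave a log2 change of -0.55 (limma adjusted p = 0.133). Of 14 endothelial markers with a named probe set, 4 lay under 29.1 on all 6 arrays, among them Pecam1 at 3.87 ± 0.723 and 3.83 ± 0.569 and Erg at 5.03 ± 1.46 and 4.03 ± 1.22. Of the 9 tested, 0 rose and 2 fell, Tek and Ramp2, a partner of the adrenomedullin receptor, which was 359 ± 16.3 with BMP4 and 517 ± 36.5 without it (SD, n = 3; log2 -0.51, limma adjusted p = 0.00161). The summed signal of the endothelial list, which includes Kdr and Tek, was 727 to 942 with BMP4 and 956 to 1055 without it. Ramp2, the brightest of these markers, and Tek carried most of this difference. The sum therefore does not show a fall across the list. The part of these markers in the results below was not tested. Precision throughout is limited by having 3 arrays a group.

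Of the 11 member probe sets tested, 4 were lower with BMP4 and 0 were higher (limma, Benjamini-Hochberg adjusted p under 0.05 over all probe sets tested). Of all probe sets tested, 9.12% passed in either direction and 4.91% passed as lower. The lower calls belonged to 4 genes, Angptl4, Vegfc, Tek and Angpt1. At an unadjusted p under 0.05 the numbers were 5 lower and 0 higher, against 11% of all probe sets tested lower and 11.5% higher, 22.5% in all. The groups did not overlap at 4 of the 11, against 28.2% of all probe sets tested. The median log2 change was -0.32 for the member probe sets and 0.03 over all tested. Changes are differences of log2(signal + 16), which understates the change of dim genes. The count of lower members fell to 2 without BMP4 replicate 3 and to 1 without control replicate 1. In bulk RNA, fewer cells of a type and less RNA per cell cannot be told apart.

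**Figure D1:**
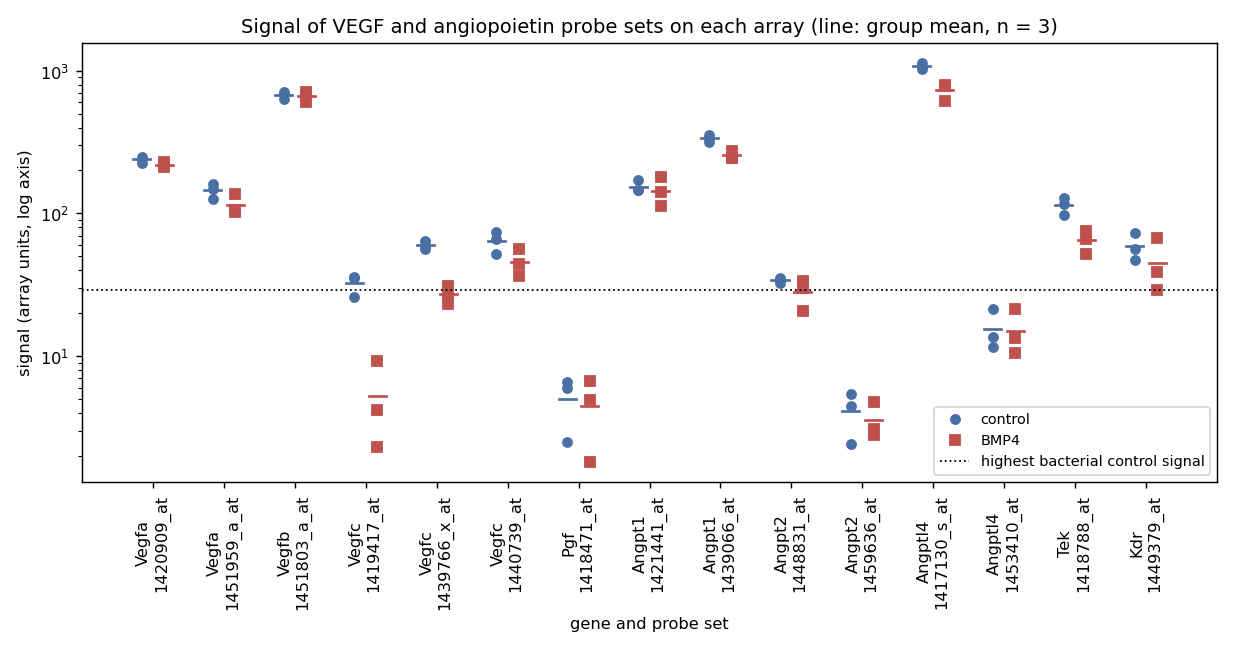
Signal on each array (log axis, array units) for the 15 member probe sets, with circles for the 3 control arrays, squares for the 3 BMP4 arrays, lines for group means and a dotted line at 29.1, the highest bacterial control signal. For Angptl4 1417130_s_at, Tek, Angpt1 1439066_at and Vegfc 1439766_x_at and 1419417_at the control circles lie above the BMP4 squares, while the other probe sets overlap.

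Among the VEGF ligands Vegfc was lower with BMP4, and Vegfa and Vegfb did not pass the test. The Vegfc probe set 1439766_x_at read 27.2, 23.3 and 30.8 with BMP4 against 64.1, 56.4 and 59.5 in controls. Every control array was above every BMP4 array, and the BMP4 values were near background, with 2 of the 3 above the highest bacterial control of their own array. The log2 change was -0.82 ± 0.17 (SE, limma adjusted p = 0.0102), and 1.25% of all probe sets tested had a lower value. The suffix _x_at marks probe sets with some probes that can match other transcripts. The call was lost without control replicate 1 (limma adjusted p = 0.0514).

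Vegfc had 2 further probe sets, which differed in what they could show. The probe set 1440739_at read 44.1, 56.7 and 36.6 with BMP4 against 73.5, 66.1 and 51.8 in controls. BMP4 replicate 2 was above control replicate 3, so the groups overlapped. Its log2 change was -0.37 (95% interval -0.77 to 0.03, limma adjusted p = 0.259). The probe set 1419417_at, built on the reference transcript NM_009506, read 2.3, 4.2 and 9.2 with BMP4 against 26.0, 36.1 and 35.3 in controls. All 3 control arrays were above the highest bacterial control of their own array and 0 BMP4 arrays were. It fell under the filter and was not tested, and against the background of the BMP4 arrays its signal was at least 1.26-fold lower (means of log2 signals, each BMP4 array at its highest bacterial control signal). When the filter was dropped, its limma adjusted p was 0.0126.

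Vegfa, the principal angiogenic ligand, is a hypoxia-induced gene made by many cell types. Its probe set 1420909_at read 213.2, 229.8 and 216.8 with BMP4 against 242.4, 249.8 and 225.1 in controls. The groups overlapped at a single pair of arrays, BMP4 replicate 2 and control replicate 3. The log2 change was -0.11 (95% interval -0.30 to 0.07, limma adjusted p = 0.468). The other Vegfa probe set, 1451959_a_at, read 102.9, 136.6 and 106.5 with BMP4 against 126.2, 147.3 and 160.7 in controls. Here too 1 pair overlapped, and the log2 change was -0.29 (95% interval -0.59 to 0.00, limma adjusted p = 0.22).

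Vegfb, a ligand of Flt1 linked to tissue lipid handling, read 601.9, 675.7 and 713.8 with BMP4 against 692.4, 630.6 and 705.5 in controls. The groups were interleaved, with the highest and the lowest array both in the BMP4 group. Its log2 change was -0.03 (95% interval -0.20 to 0.15, limma adjusted p = 0.881). Pgf, placental growth factor, another Flt1 ligand, was at background on all 6 arrays, with 4.9, 6.7 and 1.8 with BMP4 against 6.0, 6.6 and 2.5 in controls, and was not tested.

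Among the Tek ligands 1 of 2 Angpt1 probe sets was lower with BMP4. Angpt1 1439066_at read 275.3, 246.5 and 246.4 with BMP4 against 357.4, 317.2 and 335.3 in controls. The groups were well apart relative to their spread, at 256 ± 16.7 and 337 ± 20.1 (SD, n = 3). Its log2 change was -0.37 ± 0.08 (SE, limma adjusted p = 0.016). The call was lost without BMP4 replicate 2 (limma adjusted p = 0.0578), BMP4 replicate 3 (0.0513) or control replicate 1 (0.0741), and without the intensity trend in the variance (0.0725).

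The other Angpt1 probe set, 1421441_at on the reference transcript NM_009640, read 180.2, 140.8 and 112.2 with BMP4 against 170.3, 146.2 and 145.0 in controls. The BMP4 arrays spanned the control arrays on both sides. Its log2 change was -0.10 (95% interval -0.43 to 0.23, limma adjusted p = 0.741), an interval that overlaps that of 1439066_at (-0.56 to -0.19). Angpt1 was therefore lower on one probe set and not resolved on the other.

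Angpt2, the context-dependent antagonist of Tek, was close to background. Its probe set 1448831_at read 30.0, 20.6 and 33.8 with BMP4 against 33.9, 32.6 and 35.1 in controls, and the groups overlapped. The log2 change was -0.19 (95% interval -0.61 to 0.23, limma adjusted p = 0.611). A second Angpt2 probe set, 1459636_at, read 2.4 to 5.4 over the 6 arrays and was not tested.

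The receptor Tek was lower with BMP4, while Kdr varied too much between arrays to resolve a difference. Tek read 75.2, 66.7 and 52.3 with BMP4 against 128.9, 98.2 and 115.7 in controls. All 6 arrays were above 29.1 and the groups did not overlap. The log2 change was -0.69 ± 0.15 (SE, limma adjusted p = 0.0167), with 1.77% of all probe sets tested below it. The call was lost without BMP4 replicate 3 (limma adjusted p = 0.0523), control replicate 1 (0.0788) or control replicate 3 (0.0584).

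Kdr read 67.1, 39.1 and 29.0 with BMP4 against 47.0, 56.3 and 72.7 in controls. Its BMP4 arrays ranged from 29.0, just under the highest bacterial control signal of any array (29.1), to near the highest control array. Each was above the highest bacterial control of its own array, which was 24.1 for BMP4 replicate 3. The log2 change was -0.32 (95% interval -0.84 to 0.19, limma adjusted p = 0.457), so the interval ran from a fall by 0.84 to a rise by 0.19.

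Angptl4 gave the smallest p of the member probe sets. The probe set 1417130_s_at read 789.8, 784.0 and 616.4 with BMP4 against 1058.9, 1035.0 and 1128.2 in controls. The 3 control arrays lay close together above all BMP4 arrays, of which replicate 3 was the lowest. Mean signals were 730.1 ± 98.5 and 1074 ± 48.4 (SD, n = 3), and the log2 change was -0.55 ± 0.09 (SE, limma adjusted p = 0.00365). The call held in all 15 alternatives, with log2 changes from -0.65 to -0.44. The suffix _s_at marks probes shared by more than 1 transcript. A dim second probe set, 1453410_at, read 10.5 to 21.5 over the 6 arrays and was not tested.

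Of 5 adipocyte markers with a named probe set, 3 were tested and 2 were higher with BMP4, against 5.03% of all genes tested. They were Fabp4, a fatty acid carrier (log2 1.97), and Adipoq, the hormone adiponectin. Other Fabp4 probe sets gave 2.15 (limma adjusted p = 4.27e-05) and 0.58 (0.0733). The other tested marker, Slc2a4, was not called (0.37, limma adjusted p = 0.538). Adipoq averaged 88.8 with BMP4 and 16.8 without it, and 1 of its 3 control arrays was above the highest bacterial control of its own array, so no fold is given. Its control arrays, at 22.9, 12.6 and 14.8, were all under the filter signal of 23.5. Adipoq passed the filter through its BMP4 arrays, so its call was not independent of that filter. The summed signal of the 5 markers was 446 to 502 with BMP4 and 114 to 147 without it. Fabp4, at means of 345 and 76.2, and Adipoq made up most of this difference. Cidec and Lep were under 29.1 on every array. The part of the adipocyte markers in the members' changes was not tested.

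**Figure D2:**
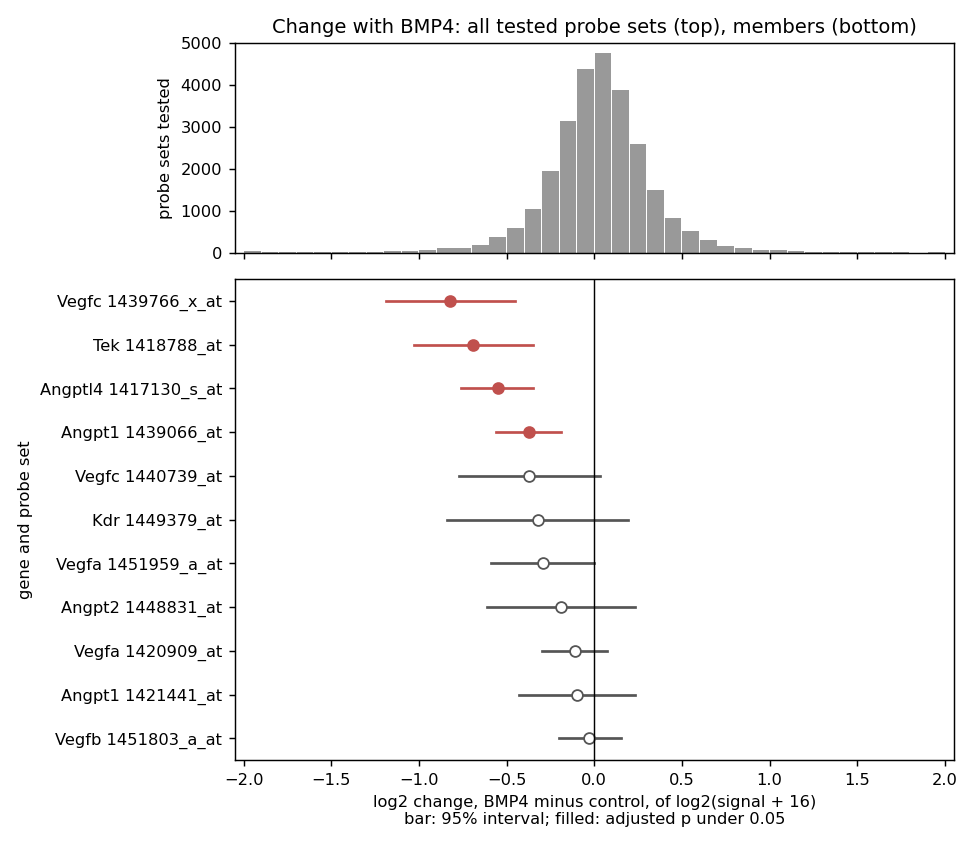
Top, number of all 27022 probe sets tested in bins of log2 change of BMP4 minus control (values beyond 2 either way sit in the end bins). Bottom, log2 change of the 11 member probe sets tested with 95% intervals. The 4 filled points, from -0.82 for Vegfc to -0.37 for Angpt1, have an adjusted p under 0.05.

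Over the 6 arrays, the genes whose log2 values ran most like Angptl4 1417130_s_at were Trim26 (Pearson r = 0.997), Zcchc24 (0.997), Ebf1 (0.995), Ralgds (0.995) and Efna5 (0.995). All of these probe sets were lower on every BMP4 array than on every control array, so r over 2 groups of 3 arrays mainly restates the group difference. Of these, Zcchc24 (log2 -0.50), Ralgds (-0.50) and Ebf1 (-0.44), a transcription factor of adipocyte progenitors, passed the test, while Trim26 (-0.21, limma adjusted p = 0.163) and the ephrin Efna5 (-0.24, limma adjusted p = 0.0603) did not.

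The other receptors, co-receptors and ligands of these families moved in both directions. Of 10 such genes tested, 2 rose and 1 fell, with a median log2 change of 0.07 against 0.03 over all 12966 genes, of which 5.03% rose and 5.66% fell. Nrp2, a co-receptor for Vegfc and semaphorins, read 225.6, 226.3 and 281.2 with BMP4 against 149.1, 150.4 and 171.4 in controls, with no overlap. Its log2 change was 0.59 ± 0.11 (SE, limma adjusted p = 0.00588), and 2 further probe sets gave 0.73 and 0.81, both past the test. Angptl1, a secreted angiopoietin-like protein, had 216 ± 17.9 without and 393 ± 57.4 with BMP4 (SD, n = 3) and rose by 0.81 on the log2 scale (1.35 on another probe set). Svep1, a large extracellular matrix protein that binds the Tek-related receptor Tie1 and acts in lymphatic development, fell from 1317 ± 88.1 to 733 ± 92.6 (SD, n = 3), or by 0.84 on the log2 scale. These calls held in all 15 alternatives. Among genes named after their values were seen, Vegfd, the ligand most like Vegfc, gave 0.07 (limma adjusted p = 0.657), Nrp1 gave -0.08 (0.559) and Flt1, a high-affinity VEGF receptor, gave -0.05 (0.923). On further probe sets Nrp1 gave -0.42 (limma adjusted p = 0.112), -0.24 (0.122) and 0.20 (0.479). Vegfd gave 0.23 (limma adjusted p = 0.142) and 0.18 (0.172) on its further probe sets.

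Hypoxia-inducible factors (HIF) are the best known activators of Vegfa transcription. Of 9 regulators of this pathway tested, 0 rose and 2 fell, against 5.03% and 5.66% of all genes tested. Their median log2 change was -0.17. At an unadjusted limma p under 0.05, 0 were higher and 3 lower, against 12.9% and 12% of all genes tested, 24.9% in all. Epas1, which encodes HIF-2 alpha, read 233.5, 244.3 and 237.6 with BMP4 against 892.5, 651.5 and 790.7 in controls. The BMP4 arrays were nearly equal and all far under the control arrays. Its log2 change was -1.63 ± 0.10 (SE, limma adjusted p = 4.1e-06), and -1.32 on another probe set. Arnt2, a partner subunit of the same family, fell by 0.70 on the log2 scale (limma adjusted p = 0.00662), but 2 further probe sets gave -0.44 (0.192) and 0.02 (0.972). Hif1a, named after its value was seen, gave -0.22 (limma adjusted p = 0.103).

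HIF target genes did not share 1 direction. Of 20 tested 3 rose and 1 fell, against 5.03% and 5.66% of all genes tested, with a median of 0.03. Adm, the vasodilator peptide adrenomedullin, averaged 949 ± 90.9 in controls and 227 ± 42.7 in treated cells (SD, n = 3), so its mean fell by 76.0% (limma adjusted p = 3.43e-06). The glycolytic genes Ldha (0.43) and Pgk1 (0.39) and the transferrin receptor Tfrc (0.49) rose, and 0 of these calls remained with arrays centred on their medians or without the intensity trend. Ldha was called in 13 of the 15 alternatives, Tfrc in 9 and Pgk1 in 7. Other Pgk1 probe sets gave 0.73 (limma adjusted p = 0.0198) and 0.44 (0.0966). Other Tfrc probe sets gave 0.41 (limma adjusted p = 0.34) and 0.21 (0.575). P4ha1, not called on its brightest probe set, was lower on another (-0.49, limma adjusted p = 0.00118).

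PPAR factors and their target genes moved in both directions. Of 14 tested 3 rose and 5 fell, against 5.03% and 5.66% of all genes tested, with a median log2 change of -0.01. Those that rose were Fabp4, Plin2, a lipid droplet coat protein (0.99), and Pparg itself, the adipogenic nuclear receptor (0.70). Pdk4, which restrains pyruvate oxidation, fell from 556 ± 5.17 to 332 ± 29.2 (SD, n = 3), or by 0.72 on the log2 scale (limma adjusted p = 0.000174), and Acadm, of fatty acid oxidation, fell by 0.40. The lipase gene Lpl, whose product Angptl4 inhibits, fell by 0.63 (limma adjusted p = 0.0224), a call lost without the filter, without the trend, or when BMP4 replicate 3, control replicate 1 or 3 was left out (highest limma adjusted p = 0.0998). The count of lower genes was 2 without the intensity trend and 3 without the filter, BMP4 replicate 3 or control replicate 1. Among 8 tested genes of the lipase pathway, 1 rose, the lysosomal lipase Lipa (0.44), and 1 fell, Lpl, against the same 5.03% and 5.66%. The median was 0.05. Lipa no longer passed when arrays were centred on their medians or the intensity trend was left out (highest limma adjusted p = 0.0635).

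Other secreted regulators of vessel growth also went both ways. Of 17 angiogenic factors tested 2 rose and 2 fell, against 5.03% and 5.66% of all genes tested, with a median of 0.20. These counts use the brightest probe set of each gene. Ccn1, not called there, was higher on other probe sets (1.43 and 1.46, limma adjusted p = 0.00393 and 0.0012). It was lower on another (-0.40, limma adjusted p = 0.0463). Cxcl12 (0.80, limma adjusted p = 0.000452) and Igf1 (0.39, 0.00816) were likewise higher on another probe set but uncalled on the rest. Hgf, hepatocyte growth factor, fell from 781 ± 77.7 to 425 ± 31.1 (SD, n = 3), or by 0.85 on the log2 scale (limma adjusted p = 0.000129), beside Adm. Ccn2, a matricellular protein, rose by 1.28, and Tgfb1 by 0.65, the latter called in 3 of 14 alternatives. Of 11 angiogenesis inhibitors tested 1 rose and 3 fell, against the same 5.03% and 5.66%, with a median of -0.06. Sema3f and Sema3a, not called on their brightest probe sets, were lower on others. These gave -0.58 (limma adjusted p = 0.0212) and -0.53 (0.00119) for Sema3f and -0.68 (0.017) for Sema3a. Col18a1, the collagen that yields endostatin (-1.89), Adamts1 (-1.06) and the thrombospondin Thbs2 (-0.83) fell, while Timp3, a metalloproteinase inhibitor that blocks VEGF binding to Kdr, rose from 2871 ± 294 to 4181 ± 107 (SD, n = 3), or by 0.54 on the log2 scale (limma adjusted p = 0.00256).

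**Figure D3:**
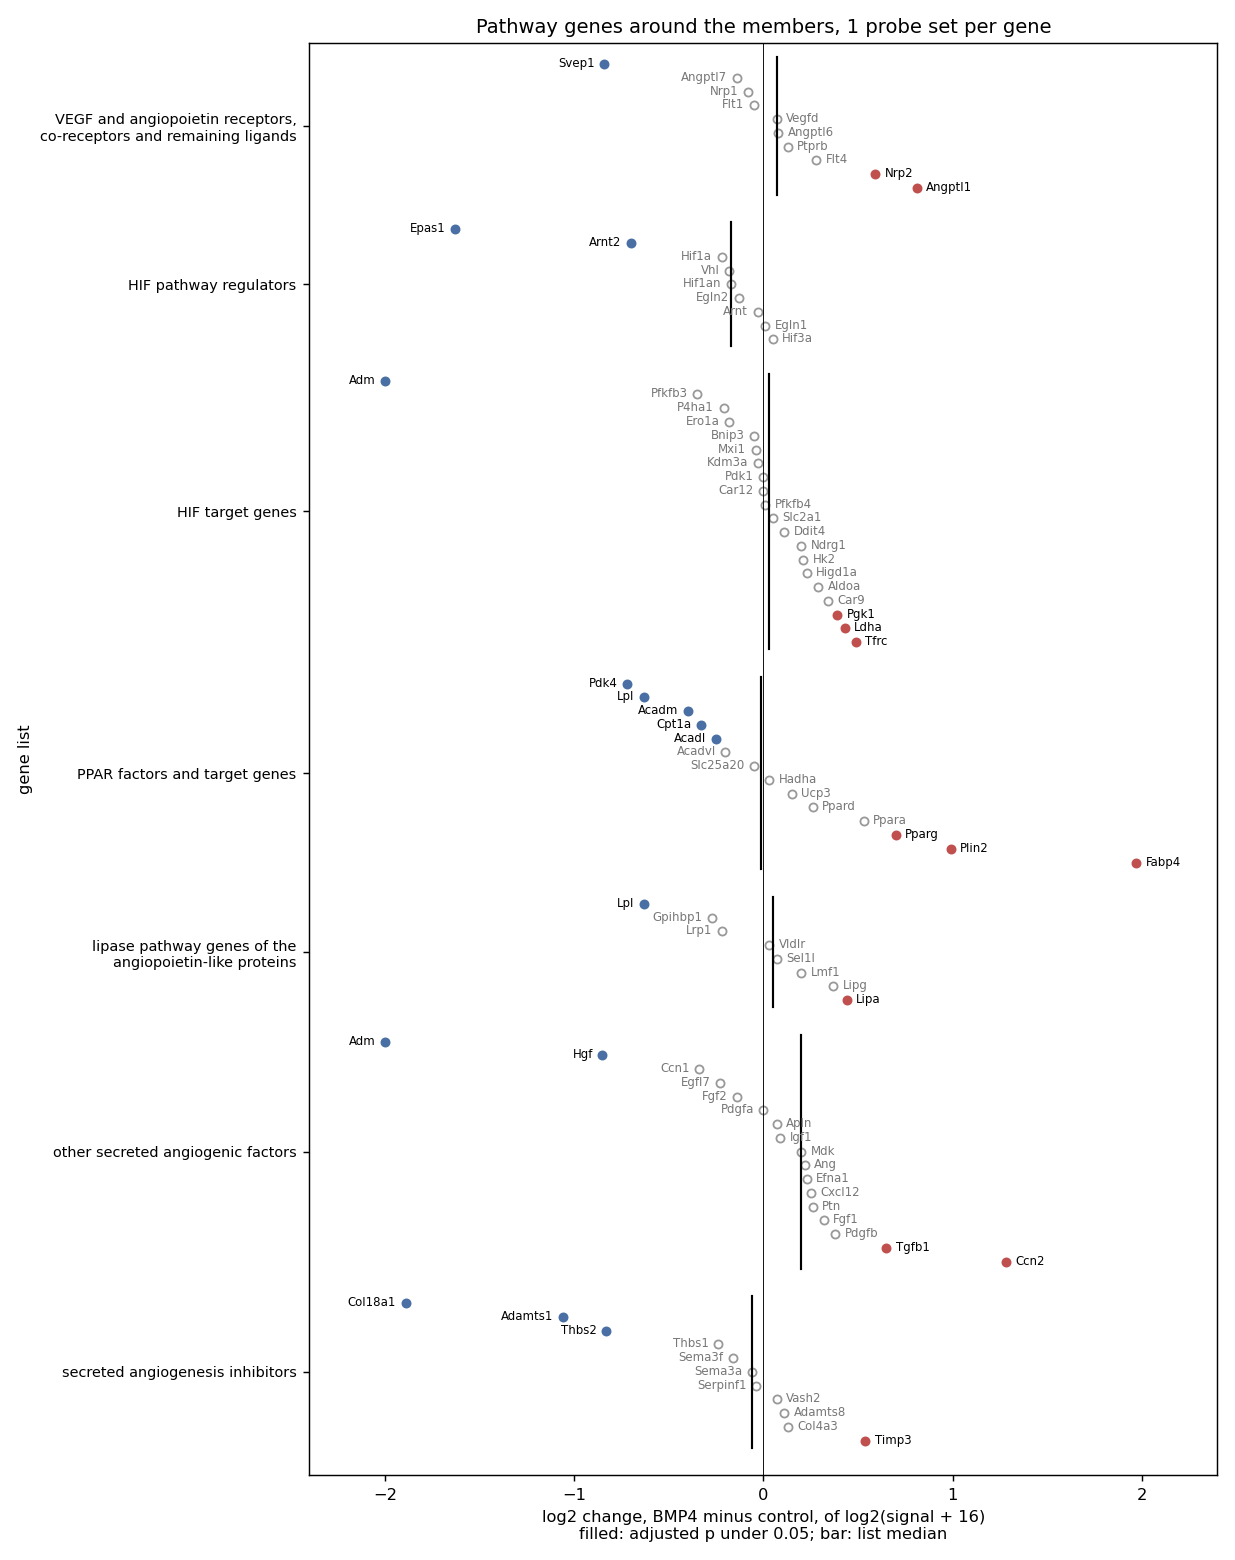
Log2 change of BMP4 minus control for each tested gene of the 7 lists around the members, 1 probe set per gene, with filled points for an adjusted p under 0.05 and a bar at each list's median. The medians lie between -0.17 and 0.20, with single genes such as Col18a1 (-1.89), Epas1 (-1.63) and Fabp4 (1.97) far from them.

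**Figure D4:**
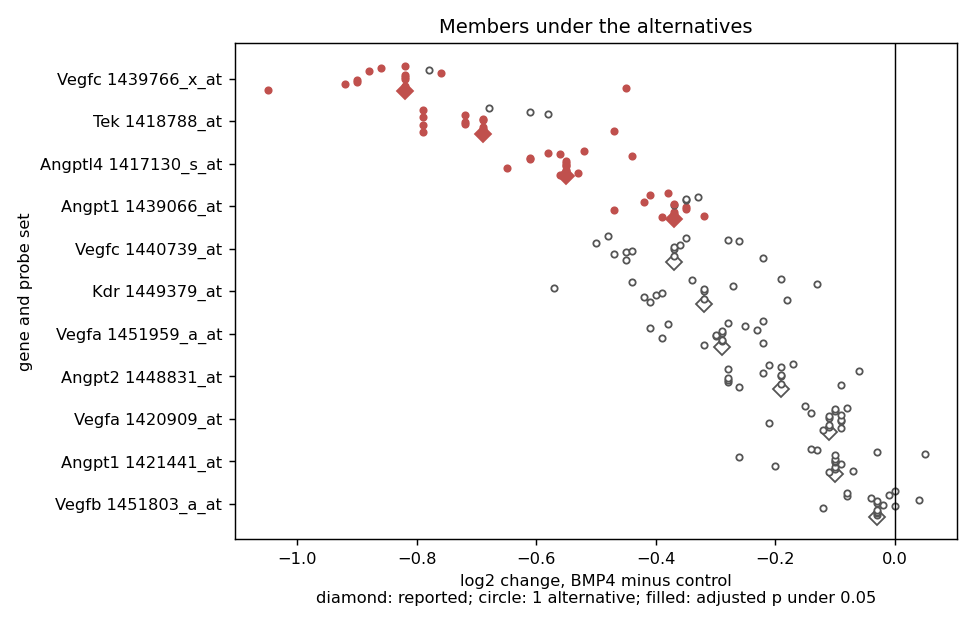
Log2 change of each tested member probe set as reported (diamond) and under each alternative (circles), filled where the adjusted p is under 0.05. Angptl4 is filled throughout and Vegfc 1439766_x_at in 13 of 14, whereas Tek is filled in 12 of 15 and Angpt1 1439066_at in 11 of 15.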

How the data were processed

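Total RNA of 6 samples was measured on 1-colour biotin arrays of 45101 probe sets. The deposited values are linear signal intensities that the authors made with GCOS 1.3, per the submitters' processing notes; the scaling target and background settings are not given in these sources. After leaving out 64 control probe sets, log2(signal + 16) was taken, and probe sets with a mean above the 40th percentile (signal 23.5) were kept. BMP4 and control were compared with limma 3.58.1 in R 4.3.3 (lmFit, eBayes with an intensity trend, two-sided, Benjamini-Hochberg over all 27022 probe sets kept, threshold 0.05, 95% intervals). Groups and replicate numbers came from the sample titles. Symbols came from the platform annotation, where 34958 probe sets had 1 symbol, 932 several and 9211 were unnamed here; all 9 member gene identifiers matched GRCm38.p6 RefSeq symbols. List genes were represented by their brightest kept probe set, and up to 3 called genes per direction were named. Members and lists were chosen with earlier results of these data known. Alternatives covered pseudocount, filter, scaling, trend, replicate block and leaving out each array.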

Additional observations from a re-analysis of the deposited data

How the results depend on the processing

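Over the 15 alternatives, 153 of 161 changes of the member probe sets kept their side of the threshold and 8 calls were lost, all in Vegfc, Tek and Angpt1. Among uncalled members the sign turned for Vegfb without BMP4 replicate 1 (log2 0.04) and for Angpt1 1421441_at without BMP4 replicate 3 (0.05). Leaving out 1 array gave 1 to 4 lower and 0 higher member probe sets, and 1622 to 1996 called probe sets over the array, against 2464. Without the intensity trend 1422 passed. With median centring 25.1% of called probe sets were higher, against 46.1%, and the median change over all tested was -0.07 against 0.03. The replicate block left 4 lower members and 2090 called probe sets; same-numbered samples did not deviate together (r = 0.01, 0.00 and -0.07), so the numbers were not taken as pairs. Of 210 list counts 35 moved by over 1.5 times or between 0 and a call; the higher HIF target count ran from 0 to 5, the lower PPAR count from 2 to 6, and the higher inhibitor count from 1 to 2.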

Other observations

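A pair of secreted vessel regulators in the lists fell under the signal filter and had no test in the report; both were chosen after their values were seen. Cnmd, which encodes chondromodulin, an angiogenesis inhibitor of cartilage, read 67.1, 56.6 and 45.1 with BMP4 and 3.3, 1.4 and 3.4 without it. All 3 BMP4 arrays were above the highest bacterial control signal of their own array and 0 control arrays were. Its signal was at least 3.06-fold higher with BMP4 (means of log2 signals, each control array at its highest bacterial control signal), and without the filter its limma adjusted p was 0.00114. Edn1, which encodes the vasoconstrictor peptide endothelin-1, read 11.1, 9.9 and 10.3 with BMP4 and 45.9, 58.0 and 26.3 without it. Here all 3 control arrays and 0 BMP4 arrays were above that level, and its signal was at least 1.62-fold lower with BMP4 by the same measure (limma adjusted p = 0.0395 without the filter).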
